A study of Mus musculus with 6 samples.

Results

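Small nucleolar RNAs (snoRNAs) were read as the genes whose annotated symbol starts with Snord or Snora followed by a number. The platform annotation names 69 such symbols, of which 51 have a probe set that names no other gene, among 19938 genes measured in this way. These 51 comprise 31 Snord genes of the box C/D class and 20 Snora genes of the box H/ACA class, and the probe set of each was chosen by its mean log2 intensity over all 6 arrays, the highest being kept. Levels therefore took part in choosing the probe sets, while the contrast between the genotypes did not. The gene family itself was chosen with earlier results of these data known. The other 18 symbols occur only on probe sets shared with another gene and are described apart.

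snoRNAs are short stable RNAs of the nucleolus that act as the guide in a ribonucleoprotein particle, base-pairing with ribosomal or spliceosomal RNA and placing a modification there. Box C/D RNAs direct methylation of the ribose by fibrillarin, and box H/ACA RNAs direct conversion of uridine to pseudouridine by dyskerin. A few, such as U8, U14 and U17, are required for cutting the ribosomal RNA precursor. In vertebrates most are released from introns of host genes, many of which encode ribosomal proteins or are noncoding RNAs with no other settled product.

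RNA came from thioglycolate-elicited peritoneal macrophages of C57BL/6 mice aged 8 weeks, and all cells received lipopolysaccharide (LPS, a bacterial cell wall component) at 100 ng/ml for 6 h. The LysMCre/Cre group (3 arrays) carries the Cre recombinase in the lysozyme gene Lyz2, which myeloid cells express. The KLF2∆/∆ group (3 arrays) carries the same Cre with a floxed Klf2 gene, so both groups share the Cre and the LPS, and no untreated cells were analysed here. The labels describe attachment to plates and washing but no sorting of cells, and they tie no array to a mouse, so a p-value here speaks only of the spread among these 6 arrays. A change below is always the difference of mean log2 intensities, KLF2∆/∆ label minus LysMCre/Cre label, n = 3 in each group. Adjusted p-values are those of limma over all 19938 genes, with 0.05 as the threshold, and a gene is called lower or higher when it passes. A gene is called low in signal when its mean over the 6 arrays lies below the 40th percentile of all non-control probe sets, a log2 intensity of 7.49, where a value is not evidence of expression.

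The median log2 intensity per array lay between 7.85 and 7.90. Klf2 itself was higher in the arrays labelled KLF2∆/∆, with 9.10, 9.25 and 9.21 against 8.88, 8.97 and 8.94 (change 0.26 ± 0.064 SE, adjusted p = 0.00658), which goes against the label. The sources used here do not say where its probes lie relative to the deleted part, so groups are named by their labels. Of 14 macrophage markers measured, 13 were above the low-signal level. Markers of some other cells moved with the groups. Of 18 fibroblast and mesothelial markers 14 were lower, and their summed linear intensity was 37231 to 37423 in LysMCre/Cre arrays and 22323 to 24142 in the others, with only Lum and Igfbp5 low in signal. Of 12 resident macrophage markers, 10 were lower (sums of 28006 to 28663 against 18249 to 19411, none low in signal), whereas 8 of the 14 macrophage markers were higher and 2 lower (71064 to 71520 against 77998 to 78934). Of 10 mast cell markers 3 were lower, with 6 low in signal, and of 10 neutrophil markers 2 were higher, with 4 low in signal. Of 7 B cell markers 1 was higher, with 2 low in signal, and of 8 T and natural killer cell markers none passed, with 6 low in signal. The sums of both these lists overlapped between the groups. The part of these cells in the snoRNA results was not tested, and fewer cells of a type cannot be told apart from less RNA per cell in such bulk samples.

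snoRNA genes were lower or did not pass the test, and none was higher. Of the 51, 21 were called lower (41.2%), 0 higher and 30 neither, whereas of all genes 18.6% were called, 10.3% lower and 8.31% higher. At an unadjusted limma p under 0.05, 30 were lower and 0 higher, against 14.6% and 13.4% of all genes. The count called lower at the adjusted threshold fell to 10 (19.6%) without LysMCre/Cre replicate 2 and to 12 (23.5%) without KLF2∆/∆ replicate 1. The share of all genes called lower fell as well, to 7.87% and 8.33%. The change was below 0 for 45 of the 51 and above 0 for 6, against 45.8% of all genes below 0. For 23 members every array labelled KLF2∆/∆ lay below every LysMCre/Cre array and for 0 above, against 16.1% and 15.6% of all genes. The median change of the members was -0.20, and that of all genes was 0.01.

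The members were also counted by signal strength. Among the 31 members not low in signal 17 were called lower (54.8%), against 14.8% of all genes not low in signal. This count was 9 without LysMCre/Cre replicate 2 and 10 without KLF2∆/∆ replicate 1, where 7.87% and 8.33% of all genes were called lower. Among the 20 low members 4 were called lower (20%), against 2.58% of all low genes. The members next to the dividing level were Snora69, with a mean of 7.54, and Snord47, with a mean of 7.45. The division uses all 6 arrays, so the change itself can move a member across it. Snord42b and Snora69 were above the level in the LysMCre/Cre mean (7.72 and 7.603) and below it in the other (7.46 and 7.486) and counted as not low, and Snord47 and Snord33 crossed likewise (7.69 to 7.22 and 7.51 to 7.28) and counted as low. Across the 51 members, which share the arrays, the change and the mean level correlated with r = -0.31 and rho = -0.41, given as a description. RMA, the normalization used by the authors, compresses ratios of dim probe sets.

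The members were next divided by class. Of the 31 box C/D genes 13 were called lower (41.9%) with a median change of -0.22, and of the 20 box H/ACA genes 8 were called lower (40%) with a median of -0.17. Of all genes 10.3% were called lower. Restricted to members not low in signal, the box C/D and box H/ACA counts were 11 of 17 (64.7%) and 6 of 14 (42.9%), against 14.8% of all genes not low in signal. All 3 arrays labelled KLF2∆/∆ lay below all LysMCre/Cre arrays for 14 box C/D and 9 box H/ACA genes, against 16.1% of all genes. The difference between the classes was not tested. The box C/D count fell to 6 without LysMCre/Cre replicate 2 and to 8 without KLF2∆/∆ replicate 1. The box H/ACA count fell to 4 when either of these arrays was left out and to 3 without KLF2∆/∆ replicate 3. Of all genes 7.87%, 8.33% and 9.73% were called lower without LysMCre/Cre replicate 2, KLF2∆/∆ replicate 1 and KLF2∆/∆ replicate 3.

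**Figure D1:**
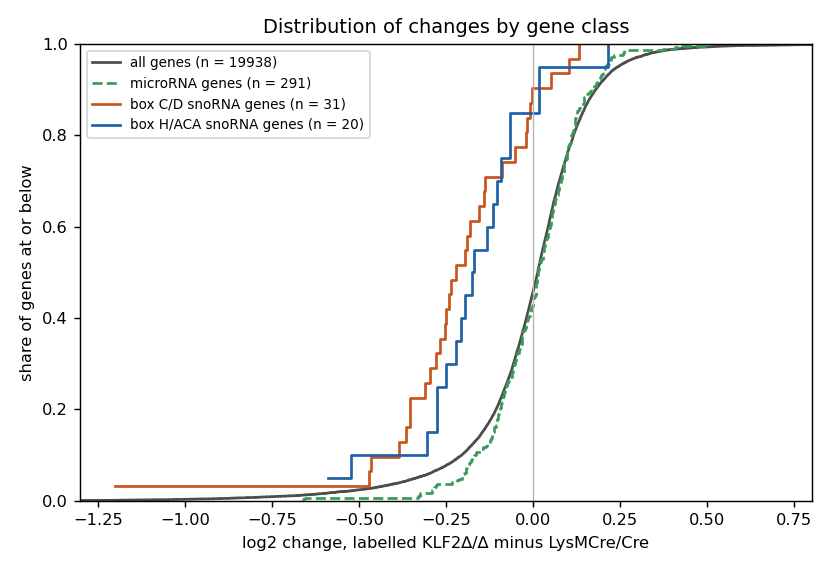
Cumulative share of genes (vertical axis) at or below a given log2 change, arrays labelled KLF2∆/∆ minus LysMCre/Cre (horizontal axis), for all 19938 genes, 291 microRNA genes, 31 box C/D and 20 box H/ACA snoRNA genes. Both snoRNA curves lie to the left of the curve of all genes, with medians of -0.22 and -0.17 against 0.01, while the microRNA curve follows all genes.

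Read array by array, the shift was present in each array labelled KLF2∆/∆. The median over the 51 members of the array's value minus the LysMCre/Cre mean was -0.25, -0.14 and -0.22 in the arrays labelled KLF2∆/∆ and -0.045, 0.051 and -0.020 in the LysMCre/Cre arrays. The LysMCre/Cre values are taken from the mean of these same arrays, so they lie near 0 by construction. The same median over all genes lay between -0.0068 and 0.033 in the 6 arrays. Replicate 1, 2 and 3 of the arrays labelled KLF2∆/∆ had 37, 30 and 34 members below all LysMCre/Cre arrays, a count that was not made over all genes. The replicates thus differed: replicate 2 was the highest of its group for 30 of the 51 members, and replicate 1 the lowest for 26. The median SD of a member within a group was 0.097 in LysMCre/Cre arrays and 0.114 in the others, compared with 0.063 and 0.087 over all genes.

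**Figure D2:**
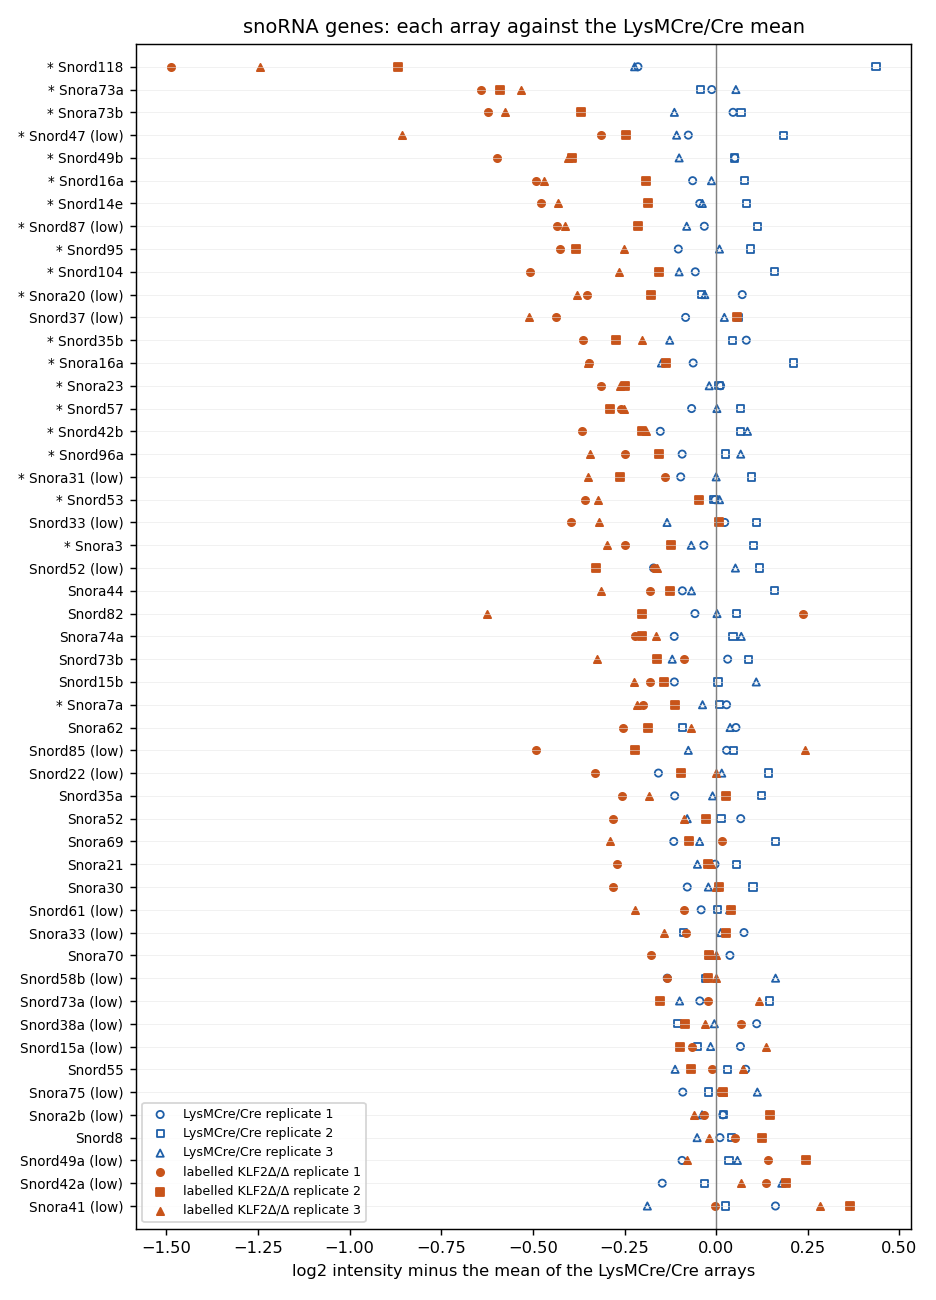
Log2 intensity of each of 51 snoRNA genes (rows, ordered by change) in each of the 6 arrays, as the difference from the mean of the LysMCre/Cre arrays (horizontal axis). Open blue symbols are LysMCre/Cre arrays, filled orange symbols are arrays labelled KLF2∆/∆, an asterisk marks the 21 genes called lower and "low" marks low signal. Orange symbols lie left of the blue ones in the upper rows, and the 2 groups mix in the lower rows.

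The RNAs needed for ribosomal RNA processing included the members with the largest changes. Snord118 (U8), which in Xenopus is required for maturation of the large-subunit ribosomal RNAs, had log2 intensities of 8.95, 9.60 and 8.94 in LysMCre/Cre arrays and 7.68, 8.29 and 7.92 in the KLF2∆/∆-labelled arrays. Replicate 2 was the highest in both groups, and the groups did not overlap. Its level was 2.30-fold lower (change -1.20 ± 0.149 SE, adjusted p = 8.88e-06), and over all alternatives the change lay between -1.36 and -0.98. The highest adjusted p of limma over the alternatives was 0.0326, with a variance model that resists outliers. The SE is that of limma, which draws on all genes, and the SD within the groups was 0.378 and 0.312. The 2 probe sets that name Snord118 hold identical values and were counted once. By RefSeq coordinates it was also the only member that lies within no other gene.

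Snora73a and Snora73b are copies of U17, an H/ACA RNA whose yeast counterpart snR30 is needed for 18S ribosomal RNA. Snora73a had 9.28, 9.25 and 9.35 in LysMCre/Cre arrays and 8.65, 8.70 and 8.76 in the others, a change of -0.59 ± 0.062 (adjusted p = 1.33e-06). Snora73b had 10.07, 10.10 and 9.91 against 9.41, 9.66 and 9.45, a change of -0.52 ± 0.070 (adjusted p = 2.14e-05). Neither gene's groups overlapped, and both genes lie within Snhg3, a noncoding host. Near-identical copies may share signal on an array, since the sources used here do not give the probe sequences.

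Snord14e is a copy of U14, which in yeast is needed for cutting out 18S ribosomal RNA and also guides a methylation. Its values were 9.73, 9.86 and 9.74 in LysMCre/Cre arrays and 9.30, 9.59 and 9.35 in the KLF2∆/∆-labelled arrays. The groups did not overlap, and the change was -0.37 ± 0.072 (adjusted p = 0.00107). Snord22 (U22), needed for 18S processing in Xenopus, was low in signal with 6.77, 7.07 and 6.94 against 6.60, 6.83 and 6.93. Those groups overlapped, and the change of -0.14 did not pass the test (adjusted p = 0.406). Snora62 (E2), an H/ACA RNA also linked to ribosomal RNA processing, had 7.89, 7.75 and 7.88 against 7.58, 7.65 and 7.77. These groups overlapped as well (change -0.17, adjusted p = 0.153).

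Among the guide RNAs, the box C/D genes Snord49b, Snord16a, Snord95 and Snord57 were called lower under every alternative run. Snord49b, a guide for 28S ribosomal RNA, had 10.31, 10.31 and 10.16 in LysMCre/Cre arrays and 9.66, 9.86 and 9.86 in the others. No arrays of the groups overlapped (change -0.47 ± 0.064, adjusted p = 3.16e-05). Snord16a, a guide for 18S ribosomal RNA, had 9.41, 9.55 and 9.46 against 8.98, 9.28 and 9.002, with replicate 2 the highest in both groups (change -0.38 ± 0.075, adjusted p = 0.00106). Snord95, a guide for 28S ribosomal RNA, had 9.002, 9.20 and 9.11 against 8.68, 8.72 and 8.85. The groups lay apart (change -0.35 ± 0.070, adjusted p = 0.00112). Snord57, a guide for 18S ribosomal RNA and among the brightest members, had 11.37, 11.50 and 11.44 against 11.17, 11.14 and 11.18. Its change was smaller but its arrays were close together (change -0.27 ± 0.046, adjusted p = 0.000286).

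Snord104, another box C/D guide, had 10.46, 10.67 and 10.41 in LysMCre/Cre arrays and 10.01, 10.36 and 10.25 in the KLF2∆/∆-labelled arrays. The groups did not overlap, but the gap between them was narrow (change -0.31 ± 0.079, adjusted p = 0.00865). Without LysMCre/Cre replicate 2 the change was -0.23 (adjusted p = 0.0731), and without KLF2∆/∆ replicate 1 it was -0.21 (adjusted p = 0.0646). Snora23, an H/ACA guide, had 10.45, 10.45 and 10.42 against 10.13, 10.19 and 10.18, with tight groups that lay apart (change -0.28 ± 0.050, adjusted p = 0.000485). Snora52, the member with the highest mean intensity, had 11.55, 11.49 and 11.40 against 11.20, 11.45 and 11.39. Its groups overlapped (change -0.13, adjusted p = 0.143). Intensities of different probe sets do not rank the RNAs by abundance.

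**Figure D3:**
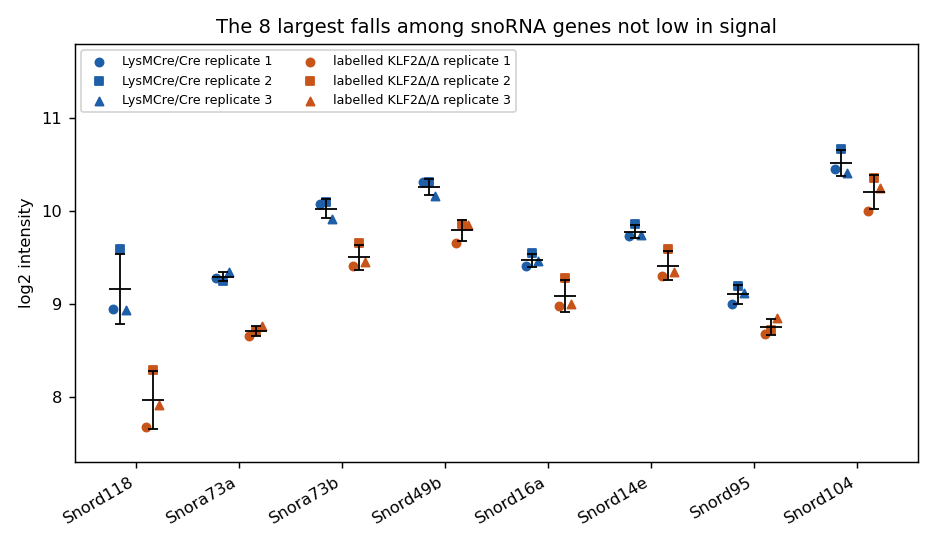
Log2 intensity (vertical axis) of the 8 snoRNA genes with the largest falls among those not low in signal, in each LysMCre/Cre array (blue) and each array labelled KLF2∆/∆ (orange), with the group mean and SD in black (n = 3). In each gene all 3 orange points lie below all 3 blue points, and the gap is widest for Snord118.

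The calls of 9 members held under every alternative run, namely Snord118, Snora73a, Snora73b, Snord49b, Snord16a, Snord14e, Snord95, Snora23 and Snord57. The other 12 each lost the call when at least 1 array was left out, and none of the 21 reversed. Besides Snord104 they were Snord35b, Snord42b, Snord53, Snord96a, Snora3, Snora7a and Snora16a, with changes of -0.28 to -0.18, and the low-signal Snord47, Snord87, Snora20 and Snora31. The highest adjusted p of these 12 with an alternative applied lay between 0.0692 and 0.294. Leaving out LysMCre/Cre replicate 2 ended the call of all of them but Snora20, which lost it without LysMCre/Cre replicate 1 (adjusted p = 0.0956) and without KLF2∆/∆ replicate 1 or 3 (adjusted p = 0.0773 and 0.0567). Leaving out KLF2∆/∆ replicate 1 ended 10 of the calls. Snord47 had 7.61, 7.87 and 7.58 in LysMCre/Cre arrays and 7.38, 7.45 and 6.83 in the others, so that replicate 3 stood below the rest of its group. Its change was -0.47 ± 0.125 (adjusted p = 0.0111), -0.38 without LysMCre/Cre replicate 2 (adjusted p = 0.0692) and -0.28 without KLF2∆/∆ replicate 3. Snora16a had 7.91, 8.18 and 7.82 against 7.62, 7.84 and 7.62, and was the only called member whose groups overlapped (change -0.28, adjusted p = 0.0437; -0.17 and adjusted p = 0.294 without LysMCre/Cre replicate 2). It also no longer passed without LysMCre/Cre replicate 1 (adjusted p = 0.0539) or without KLF2∆/∆ replicate 1 or 3 (0.163 and 0.120).

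Snord32a, Snord33, Snord34 and Snord35a lie in introns of Rpl13a and are known from work on lipotoxic and oxidative stress in cultured cells. Snord33 was low in signal, with 7.54, 7.63 and 7.38 in LysMCre/Cre arrays and 7.12, 7.52 and 7.19 in the KLF2∆/∆-labelled arrays. The groups overlapped through replicate 2 (change -0.24, adjusted p = 0.118), and without KLF2∆/∆ replicate 2 the change was -0.36 and passed the test (adjusted p = 0.0131). Snord35a had 8.50, 8.73 and 8.60 against 8.35, 8.64 and 8.43, again with overlap (change -0.14, adjusted p = 0.308). Snord32a and Snord34 have no probe set of their own. The probe set shared by Snord34 and Rpl13a had 7.03, 7.12 and 7.07 against 6.65, 6.69 and 6.64, and that shared by Snord32a and Rpl13a had 10.43, 10.46 and 10.38 against 10.18, 10.33 and 10.11. Both sets had groups that lay apart and were called lower over all 28944 non-control probe sets, of which 9.09% were called lower (changes of -0.41 and -0.22, adjusted p = 0.00204 and 0.0269), but the gene behind each signal cannot be told apart.

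The 6 members with a change above 0 did not pass the test. They were Snora75, Snora2b, Snord8, Snord49a, Snord42a and Snora41, and only Snord8 was not low in signal. Snora41 had the largest change of these, with 6.74, 6.60 and 6.39 in LysMCre/Cre arrays and 6.57, 6.94 and 6.86 in the others (change 0.21, adjusted p = 0.198). Snord82, not low in signal, had a wide spread within the arrays labelled KLF2∆/∆, at 9.58, 9.70 and 9.64 against 9.88, 9.44 and 9.02. Its replicate 1 in the arrays labelled KLF2∆/∆ lay above all LysMCre/Cre arrays and its replicates 2 and 3 below them (change -0.20, adjusted p = 0.386).

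Since most snoRNAs are cut from introns, each was set beside the gene it lies in. By RefSeq coordinates 50 of the 51 lie within the span of a gene that is no snoRNA, in 40 distinct hosts, 23 of which were measured. Each host was read from its brightest probe set, which need not lie at the host's locus. Probe set identifiers mostly group by chromosome. Those kept for Hspa8, Rpl10, Rpl23, Rpl27a, Rps12, Rps3a1, Rpsa and Tpt1 stand away from those of the host's chromosome. Their values may come from another locus, which was not tested. The probe sets kept for the members Snora21 and Snora30 stand away likewise. The other probe set of Snora21 had a change of -0.15 in place of -0.10, and those of Snora30 hold identical values. Of these 23 host genes 16 were called lower (69.6%), 0 higher and 7 neither, with a median change of -0.20. None of the 23 was low in signal, and of all genes not low in signal 14.8% were called lower. Among them 10 encode ribosomal proteins, of which 7 were called lower. Against 10.3% of all genes, the 37 members in coding hosts had 13 called lower and a median of -0.17, and the 13 in noncoding hosts had 7 called lower and a median of -0.28. The 21 members in ribosomal protein genes had 5 called lower and a median of -0.13. Whether these groups of members differ was not tested.

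The size of each member's change was then set against that of its host. Over the 27 members with a measured host, which share the arrays and in some cases the host, the changes of member and host correlated with r = -0.088 and rho = -0.057, given as a description. In 8 of the 27 both were called lower, in 2 only the member, in 11 only the host and in 6 neither, and both changes were below 0 in 20. The fitted change of the member was below that of its host in 13. Taken within each array, the member minus the host did not overlap between the groups for 13 of the 27, in 9 with the host further down and in 4 with the member further down. Of these, 6 of the 9 and 1 of the 4 members were low in signal. The exact two-sided permutation p was 0.1 for each, the smallest that 3 arrays against 3 can give. The hosts of these 13 include Hspa8, Rps12, Rpsa and Tpt1, whose probe sets may lie at another locus. The correlation and the counts above also include the other hosts with this limit, and the members Snora21 and Snora30.

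Single pairs show this range. Ncl, which encodes the nucleolar protein nucleolin, had 10.82, 10.97 and 10.96 in LysMCre/Cre arrays and 10.43, 10.46 and 10.08 in the others (change -0.59 ± 0.078, adjusted p = 1.63e-05). Its members Snord82 and Snora75 had changes of -0.20 and 0.02. Nop56, which encodes a box C/D core protein and hosts Snord57, had 10.89, 10.87 and 10.84 against 10.39, 10.43 and 10.36. Its change of -0.48 ± 0.048 (adjusted p = 7.32e-07) exceeded the -0.27 of Snord57, and Snord57 minus Nop56 was 0.57 ± 0.080 in LysMCre/Cre arrays and 0.77 ± 0.056 in the others (SD, no overlap, exact p = 0.1). Gas5, a noncoding host, had a change of -0.45 (adjusted p = 0.000635) and its member Snord47 one of -0.47. Snord16a minus its host Rpl4 went the other way, from -1.47 ± 0.057 to -1.70 ± 0.113 (SD, no overlap, exact p = 0.1). Wdr43, a ribosome biogenesis factor, had a change of 0.05 (adjusted p = 0.573), while its member Snord53 was called lower (change -0.24, adjusted p = 0.0334), a call that ended when each of the 3 LysMCre/Cre arrays was left out in turn (adjusted p of 0.0831 to 0.0999) and without KLF2∆/∆ replicate 1 or 3 (0.161 and 0.108). A probe set for a snoRNA may also read the intron of its host's precursor RNA, and the sources used here give no probe positions, so mature snoRNA and precursor cannot be told apart.

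**Figure D4:**
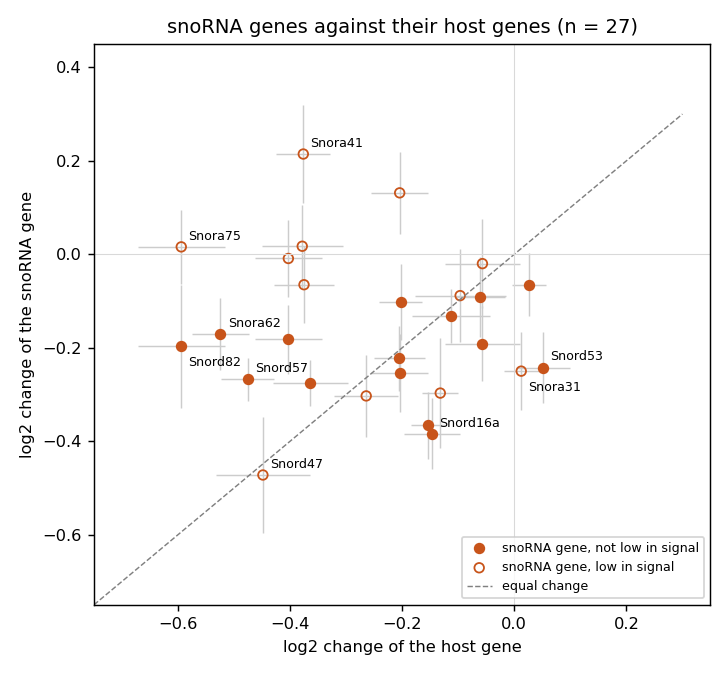
Log2 change of 27 snoRNA genes (vertical axis) against the log2 change of the gene each lies in (horizontal axis), both as arrays labelled KLF2∆/∆ minus LysMCre/Cre, with SE bars; open circles are snoRNA genes low in signal and the dashed line marks equal change. Points scatter on both sides of the line, from Snora75 at 0.02 in a host at -0.59 to Snord53 at -0.24 in a host at 0.05. Values come from the brightest probe set of each gene, which for some hosts and snoRNA genes may lie at another locus.

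Of the hosts, 10 held 2 measured members each and none held more. In 2 of these pairs both members were called lower (Snora73a with Snora73b in Snhg3, and Snord95 with Snord96a in Rack1), in 3 only 1 member was, and in 5 neither. The call of Snord96a ended without LysMCre/Cre replicate 2 or 3 (adjusted p = 0.0992 and 0.128) and without KLF2∆/∆ replicate 1 or 3 (adjusted p = 0.0649 and 0.0866). The changes had the same sign in 7 pairs. Within arrays, the difference between the members of a pair separated the groups in 2 pairs. In 2410006H16Rik, Snord49a minus Snord49b was -3.25 ± 0.153 in LysMCre/Cre arrays and -2.68 ± 0.216 in the others (SD, exact p = 0.1). Snord49a, which is low in signal, had 6.92, 7.05 and 7.07 against 7.15, 7.26 and 6.93, so its groups overlapped while those of Snord49b did not. In Rpl23a, Snord42a minus Snord42b went from -0.57 ± 0.096 to -0.19 ± 0.122 (SD, exact p = 0.1), with Snord42a low in signal.

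Many genes of the translation machinery start at a cytosine followed by a run of pyrimidines (the 5′ terminal oligopyrimidine sequence), a feature that coding and noncoding snoRNA hosts are known to share. The windows below are shown because these hosts hold the named members that were called lower, together with Hspa8, the host of Snord14e, which is named only. They cover 30 bases on either side of the start that RefSeq lists first (GRCm38.p6), 5′ to 3′ on the gene's strand. Capitals mark the longest run that has a C followed by at least 7 bases which are each C or T, searched on the gene's strand only.
Snhg3, host of Snora73a and Snora73b, chr4:132353657-132353716, minus strand: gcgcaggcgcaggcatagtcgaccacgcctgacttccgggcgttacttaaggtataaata
2410006H16Rik, host of Snord49b, chr11:62602847-62602906, plus strand: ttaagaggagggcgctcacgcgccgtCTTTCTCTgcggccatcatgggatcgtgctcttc
Rpl4, host of Snord16a, chr9:64173357-64173416, plus strand: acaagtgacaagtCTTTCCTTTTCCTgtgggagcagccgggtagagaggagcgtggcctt
Rack1, host of Snord95, chr11:48800330-48800389, plus strand: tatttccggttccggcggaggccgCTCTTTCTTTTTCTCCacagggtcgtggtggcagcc
Gm36220, host of Snord104, chr11:106500885-106500944, plus strand: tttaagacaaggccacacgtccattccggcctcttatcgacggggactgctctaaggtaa
Ipo7, host of Snora23, chr7:110018285-110018344, plus strand: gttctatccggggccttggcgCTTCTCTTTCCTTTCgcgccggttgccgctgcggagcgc
Nop56, host of Snord57, chr2:130274382-130274441, plus strand: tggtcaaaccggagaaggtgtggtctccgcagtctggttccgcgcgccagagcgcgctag
Gas5, host of Snord47, chr1:161034571-161034630, plus strand: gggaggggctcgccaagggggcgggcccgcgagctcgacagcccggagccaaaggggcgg

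The runs were 8, 13, 16 and 15 bases long in 2410006H16Rik, Rpl4, Rack1 and Ipo7, and the windows of Snhg3, Gm36220, Nop56 and Gas5 held no such run. RefSeq lists a further start for Gas5, which was not searched. Of 40 distinct hosts 30 had a start window, and 10 of these 30 held a run (33.3%), compared with 18.0% of 27025 genes. A match is a description of the letters in the window and not a mapped transcription start.

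snoRNAs are stable only in complex with their core proteins, so the genes of these proteins were read from a list. All 5 genes of the box C/D list, the core protein genes together with Rrp9, were called lower, with a median change of -0.32. Of all genes not low in signal 14.8% were called lower. Nop56 is given above. Nop58, its paralogue in the particle, had 8.68, 8.86 and 8.96 in LysMCre/Cre arrays and 8.23, 8.51 and 8.36 in the others (change -0.47 ± 0.083, adjusted p = 0.000422). The groups lay apart in Nop58, as in the other genes of this list. Rrp9, which belongs to the U3 particle, fell by 0.32 (adjusted p = 0.000508), Fbl, the methyltransferase fibrillarin, by 0.20 (adjusted p = 0.0187), and Snu13, which binds the RNA first, by 0.16 (adjusted p = 0.0135). Fbl no longer passed without LysMCre/Cre replicate 1 or 2 (adjusted p = 0.0834 and 0.101), and Snu13 without LysMCre/Cre replicate 1 (adjusted p = 0.0867).

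All 4 box H/ACA core protein genes were also called lower, with a median change of -0.36, against 14.8% of all genes not low in signal. Dkc1, which encodes the pseudouridine synthase dyskerin, had 8.86, 8.62 and 8.66 in LysMCre/Cre arrays and 7.93, 8.12 and 7.85 in the KLF2∆/∆-labelled arrays. The groups lay well apart (change -0.75 ± 0.083, adjusted p = 2.56e-06). Nop10 fell by 0.44 (adjusted p = 0.000186), Nhp2 by 0.27 (adjusted p = 0.00698) and Gar1 by 0.27 (adjusted p = 0.00626). Leaving out LysMCre/Cre replicate 1 ended the calls of Nhp2 and Gar1 (adjusted p = 0.0524 and 0.0557).

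The lists of factors that assemble, process or survey these RNAs held calls in both directions. Of 12 assembly factors 3 were called lower, namely Nolc1, a nucleolar and Cajal body phosphoprotein (change -0.24, adjusted p = 0.00564), Ruvbl2, an ATPase of the assembly complex (change -0.24, adjusted p = 0.00959), and Taf9 (change -0.18, adjusted p = 0.018). Of 12 processing enzymes 1 was lower, Tent4b, a poly(A) polymerase that acts on precursor ends (change -0.18, adjusted p = 0.0189). Tgs1, which forms the trimethylguanosine cap of independently transcribed snoRNAs such as U8, was the 1 called higher, with 9.75, 9.76 and 9.67 in LysMCre/Cre arrays and 10.05, 10.03 and 10.08 in the others. Its groups lay apart (change 0.32 ± 0.054, adjusted p = 0.000212). Of 7 genes of nonsense-mediated decay, which degrades spliced noncoding hosts such as Gas5, Smg6 was lower (change -0.25, adjusted p = 0.0178) and Smg9 higher (change 0.21, adjusted p = 0.0179). In all, 14 of 40 measured genes of these lists were called lower and 2 higher, and 9 were called in either direction without LysMCre/Cre replicate 1. The calls of Ruvbl2, Taf9, Tent4b, Smg6 and Smg9 each ended when a single array was left out, for at least 2 arrays in each case (highest adjusted p over the alternatives of 0.0643, 0.120, 0.102, 0.0752 and 0.0914).

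**Figure D5:**
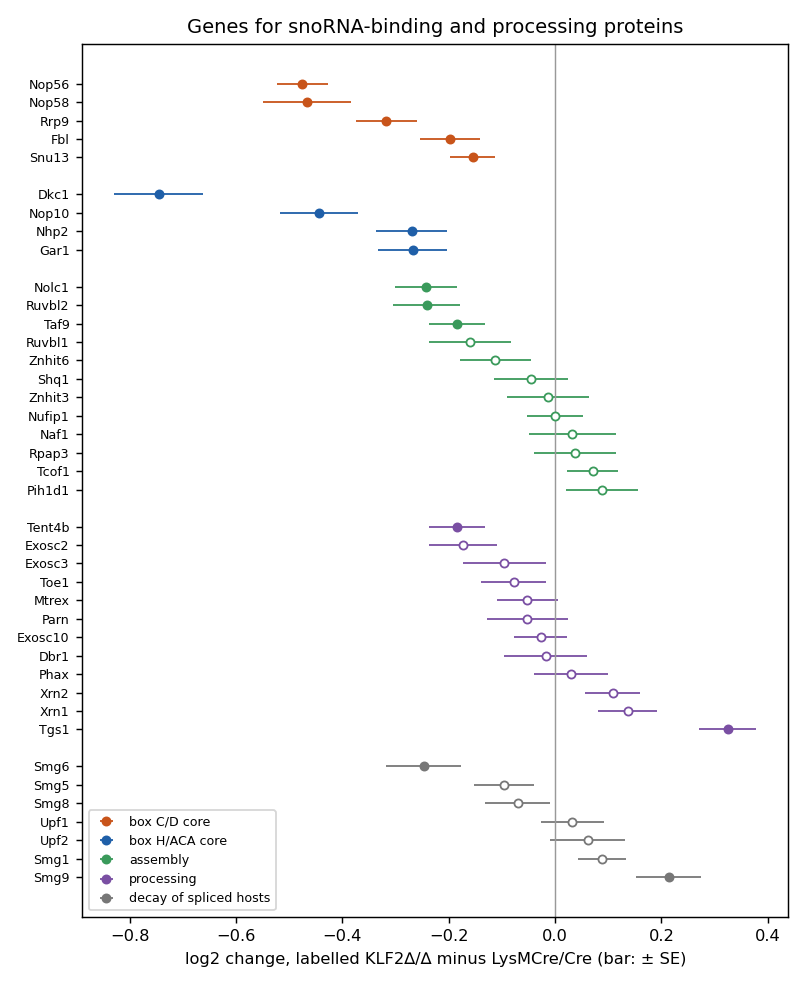
Log2 change, arrays labelled KLF2∆/∆ minus LysMCre/Cre, with SE (horizontal axis) for 40 genes of snoRNA core proteins, assembly factors, processing enzymes and nonsense-mediated decay; filled symbols passed the adjusted p threshold of 0.05. All 9 genes of the core protein lists, Rrp9 included, lie below 0 and passed, while the other lists lie on both sides of 0.

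Other short RNAs on the array were read beside the snoRNAs. Of 291 microRNA genes, of which 97 were not low in signal, 9 were called lower and 7 higher, with a median change of 0.01. The 3 small Cajal body RNA genes, relatives of snoRNAs that guide modification of spliceosomal RNA, had changes of -0.02 (Scarna13), -0.07 (Scarna17) and 0.0023 (Scarna8), and none passed by limma, at an unadjusted p under 0.05 either. Of 5 Rnu genes none passed, with 1 lower at an unadjusted p under 0.05. This was Rnu3a, a U3 gene and thus a box C/D RNA outside the symbol rule, which was low in signal (change -0.23, adjusted p = 0.103). Of 4 further RefSeq snoRNA genes without a Snord or Snora symbol, DQ267102 was called lower (change -0.22, adjusted p = 0.0461). Finally, 3 stable noncoding RNAs transcribed from their own promoters were chosen after their values were seen. Rmrp, the RNA of RNase MRP, which cuts ribosomal RNA precursors, had 11.04, 11.23 and 11.03 in LysMCre/Cre arrays and 10.65, 10.81 and 10.64 in the others (change -0.40 ± 0.060, adjusted p = 8.63e-05). Rpph1, the RNA of RNase P, had a change of -0.47 ± 0.047 (adjusted p = 5.82e-07). Terc, the H/ACA-type RNA of telomerase, had one of 0.05 (adjusted p = 0.656).

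The 18 symbols without a probe set of their own occur on 41 shared probe sets, and no value on them can be given to 1 gene. Of these, 24 name Snord116 copies, box C/D RNAs of an imprinted cluster that is known from neurons. They hold only 7 distinct sets of values, had changes of 0.26 to 0.35, and none passed by limma (adjusted p of 0.0566 to 0.218; 23 of 24 were higher at an unadjusted p under 0.05). LysMCre/Cre replicate 1 stood apart on them, with 7.76 to 8.10, while LysMCre/Cre replicates 2 and 3 had 8.19 to 8.63 and the arrays labelled KLF2∆/∆ 8.25 to 8.78. Of 10 neuron markers 9 were low in signal, and the other, Ndn, was called lower (change -0.44, adjusted p = 0.000195). Among the other 17 shared probe sets 15 had changes below 0 and 5 were called lower, against 9.09% of all 28944 probe sets. With copies of identical values counted once, 13 of 15 had changes below 0 and 5 were called lower. These 5 were the 2 described above for Rpl13a, 2 shared by Snord14c, Snord14d and Hspa8 (changes of -0.44 and -0.43, adjusted p = 0.000476 and 0.00058), and 1 shared by Snord68 and Rpl13 (change -0.44, adjusted p = 0.0113).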

How the data were processed

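The values the authors deposited are log2 intensities for 35557 probe sets on 6 arrays. RMA in Affymetrix Expression Console is what the submitters' processing notes list. Per the file headers, another table gives linear intensity, whose log2 matched the former within 5.1e-05. The sources used here name no versions, genome build or scan dates, so batches were not tested. RMA equalises the distributions of the arrays, which hides a shift common to most genes.

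Leaving out 6613 controls kept 28944 probe sets, of which 21789 name 1 gene, 1621 several and 5534 none. Symbols were updated to RefSeq GRCm38.p6 (21698 matched), and of its 133 genes with a Snord or Snora symbol 51 were measured. The brightest single-gene probe set stood for each of 19938 genes (999 had several), with no filter. It need not lie at the gene's locus, which also holds for the core and processing protein genes. limma 3.58.1 (R 4.3.3; lmFit, then eBayes with an intensity trend) gave two-sided tests with Benjamini-Hochberg adjustment over all genes, a prior of 13.55 degrees of freedom and a median SE of 0.0755. The number of arrays limits the precision. The fit was tested on simulated data. Over all genes, equal replicate numbers did not pair the arrays (correlations of deviations -0.062, 0.051 and -0.044). This was not computed for the 51 members alone. Among them LysMCre/Cre replicate 2 lay below its group mean for 11, and KLF2∆/∆ replicate 2 was the highest of its group for 30. Hosts are RefSeq genes whose span contains the member, the smallest if several; the table has no strand, so strand was not used. Start windows are RefSeq sequences. Figures were drawn with matplotlib 3.10.9.

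Members and gene lists were chosen with earlier results of these data known. Named members are the 8 largest falls past the threshold without overlap among those not low in signal (no rise passed), the 5 brightest, a list of well-studied snoRNAs and those next to the low-signal level. Host pairs, the other called members, the largest positive change, Snord82 and Ndn were singled out after their values were seen. Alternatives covered filters, scaling, probe sets, array weights, the variance model, the replicate block, the threshold and leaving out each array.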

Additional observations from a re-analysis of the deposited data

How the results depend on the processing

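No alternative called a snoRNA gene higher, and 41 to 46 of the 51 had changes below 0 in every fit without a filter. The count of members called lower, 21, was 14 to 21 under other filters, scalings, weights and variance models, 22 with the replicate block and 10 at an adjusted p threshold of 0.01. Leaving out 1 array gave 10 to 22. Filters also leave fewer members to test. At the 40th percentile 19 of 31 (61.3%) were called lower and at the 60th 15 of 21 (71.4%), against 16.2% and 19.4% of all genes kept. The box C/D count, 13, was 7 at the threshold of 0.01 and 6 to 14 with 1 array left out (14 with the replicate block). The box H/ACA count, 8, was 4 with median centring, 5 without the intensity trend, 3 at the threshold of 0.01, 4 with all 28944 probe sets fitted together (an alternative chosen after seeing the data) and 3 to 8 with 1 array left out (8 with the replicate block). Members not low in signal, 17, were 11 without the trend, 10 at 0.01 and 9 to 17 with 1 array left out. The core and processing protein genes, 16 called in either direction, were 10 at 0.01 and 9 to 17 with 1 array left out. The other small RNA genes, also 16 (of 299), were 10 with the filter at the 60th percentile (of the 59 it leaves), 8 at 0.01 and 11 to 24 with 1 array left out. The median box C/D change of -0.22 was -0.28 with the filter at the 60th percentile, over the 13 genes it leaves. Host genes kept 12 to 16 calls throughout (15 with the replicate block). All genes called, 3717, ranged from 2528 to 4071, and from 2760 to 3686 with 1 array left out. Lyz2, with no difference called (change 0.0050), ranged from -0.033 to 0.044 with 1 array left out, and was -0.027 without KLF2∆/∆ replicate 1 and -0.0013 without KLF2∆/∆ replicate 3. For equal replicate numbers, 1 of 3 pairs correlated best with its own number over all genes. The replicate block ended the call of Snora31 (adjusted p = 0.0506) and added calls of Snora44 and Snord37 (adjusted p = 0.0282 and 0.0400). The cause of these differences was not tested. Dim probe sets limit the 20 members low in signal.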
